A study of Aedes aegypti with 8 samples.

Results

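The genes described here encode the heme oxygenase, secreted ferritin subunits and transferrins of the mosquito *Aedes aegypti*. They were chosen by identifier, with earlier results of these data known: AAEL008136 (heme oxygenase), AAEL007385 and AAEL007383 (secreted ferritin subunits), and AAEL015458 and AAEL015639 (transferrins). Of these 5 identifiers, 4 matched 1 row each of a count table with 19712 identifiers, and all 4 passed the filter on low counts, as did 11095 identifiers in all. AAEL015639 was not analysed here.

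Midguts were dissected from sugar-fed females of the Liverpool strain, 3 to 5 days old, and kept for 35 h in Schneider's *Drosophila* medium with antibiotics and L-glutamine. The medium held 10 µM heme, added as hemin chloride, in 4 libraries and 0 µM heme in the other 4. Fetal bovine serum was left out of both media, so the 0 µM group was a group without heme and not one in a complete medium. Each biological replicate was a pool of midguts cultured outside the body, without a blood meal. Expression was measured by sequencing of polyA RNA. The comparison asked which transcripts responded when the midgut was exposed to heme.

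Heme is the iron-holding ring of hemoglobin, and digestion of blood releases it in the mosquito midgut in large amounts. Heme oxygenase opens the ring and frees iron, carbon monoxide and a biliverdin. Ferritin is a hollow shell built of heavy and light subunits that stores iron, and in insects much of it passes through the secretory pathway and is released into the gut lumen and hemolymph. Transferrins bind and carry ferric iron outside cells.

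Total counts ranged from 50531043 to 56947544 at 10 µM heme and from 46027977 to 54897568 at 0 µM heme. A run of 26 consecutive identifiers, AAEL018664 to AAEL018689, took 6.69%, 0.0946%, 1.69% and 3.03% of counts in replicates 1 to 4 at 10 µM and 0.0968% to 0.190% at 0 µM, so the libraries at 10 µM were unequal in composition. The study describes 0 µM replicate 1 and 10 µM replicate 2 as lying apart from the other libraries of their groups. Values without those libraries are given for the 4 genes and for some of the others described further on. As markers of midgut, 2 trypsin identifiers, a leucine aminopeptidase and an alpha-amylase were read in both groups. All 8 libraries were of midgut, so these levels cannot show how much midgut epithelium a library held. The paper also reports trypsin AAEL009853 as differentially expressed in cultured A20 cells. Trypsin AAEL009853 averaged 8.82 ± 0.392 CPM (TMM-scaled counts per 1000000) at 10 µM and 14.0 ± 1.77 CPM at 0 µM (SD, n = 4 each), and fell by 0.67 on the log2 scale (edgeR exact test, adjusted p = 5.40e-04). Leucine aminopeptidase averaged 39.5 and 43.3 CPM, trypsin AAEL002273 averaged 0.255 and 0.361 CPM (10 µM and 0 µM in that order), and alpha-amylase had 6 to 11 counts at 10 µM and 2 to 9 at 0 µM. Trypsin AAEL002273 had only 9 to 24 counts per library, and alpha-amylase did not pass the filter on low counts and was not tested. Paramyosin, taken as a marker of muscle, stood at 112 ± 5.04 CPM at 10 µM and 120 ± 11.7 CPM at 0 µM (SD, n = 4 each; edgeR exact test, adjusted p = 0.907). Whether a shift among midgut cell types had a part in the values that follow was not tested, and in such bulk samples fewer cells of a type and less RNA per cell cannot be told apart.

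Of heme oxygenase, both ferritin subunits and the transferrin, 0 of 4 passed the edgeR exact test at an adjusted p of 0.05, which 4.63% of all 11095 genes tested did. The ferritin subunits had the clearest difference. In TMM-scaled CPM, every library at 10 µM heme lay above every library at 0 µM in both AAEL007385 and AAEL007383. Over all genes tested this held for 4.87%. Both also had an unadjusted p under 0.05, as did 13.3% of all genes tested. The fold differences were small, 1.39-fold and 1.31-fold. The separation of AAEL007383 rested on TMM scaling. As shares of total counts, 10 µM replicate 1 (62228 of 53596619) lay below 0 µM replicate 3 (61543 of 52671112). Scaled by library totals, log2 fold changes were 0.39 for AAEL007385 and 0.30 for AAEL007383 (edgeR exact test, adjusted p = 0.379 and 0.638). In that fit 1 of the 4 genes had an unadjusted p under 0.05. The share over all genes in that fit is not given here, so this count cannot be weighed. With TMM scaling, heme oxygenase differed by 1.22-fold with overlapping groups, and the transferrin had few counts.

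**Figure D1:**
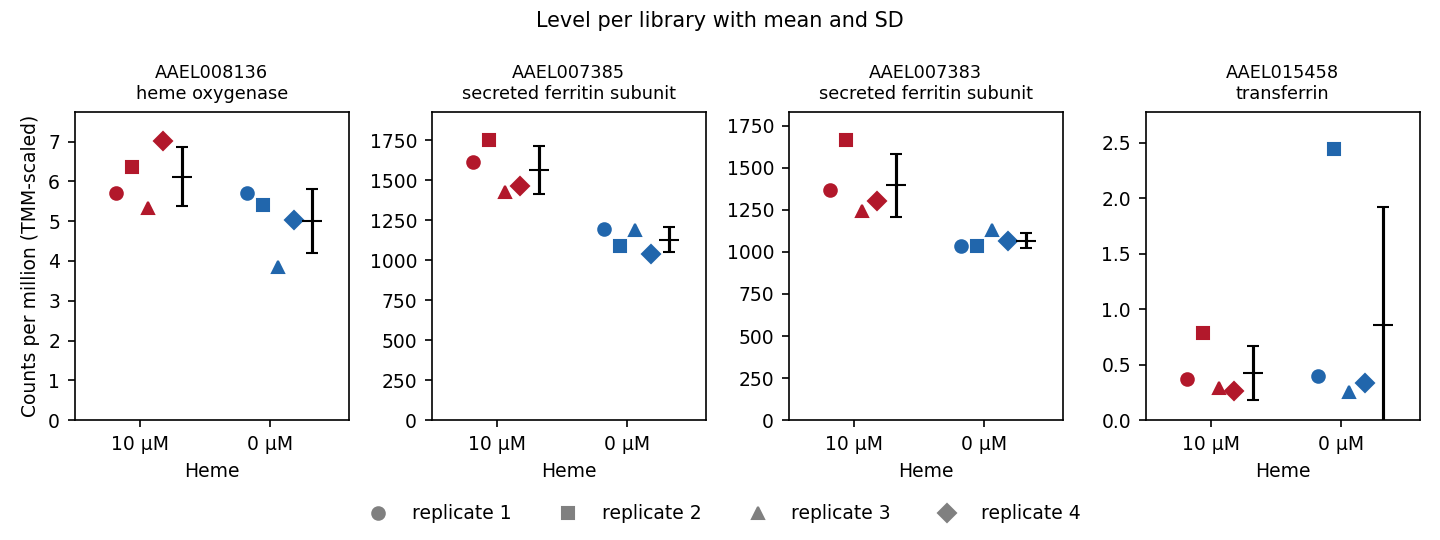
Level of each gene in the 8 libraries, in TMM-scaled CPM, with 10 µM heme left of 0 µM heme. Points are libraries, marked by replicate number, and the bars beside them are the mean ± SD of 4 libraries (the lower bar of AAEL015458 at 0 µM is clipped at 0). The 10 µM libraries lie above all 0 µM libraries for both ferritin subunits and overlap with them for heme oxygenase and the transferrin, where 0 µM replicate 2 stands at 2.44.

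Heme oxygenase, AAEL008136, was counted 260, 358, 259 and 428 times in 10 µM heme replicates 1 to 4, and 259, 312, 210 and 286 times in 0 µM heme replicates 1 to 4. Scaled to library size these were 5.72, 6.37, 5.34 and 7.03 CPM at 10 µM, against 5.72, 5.41, 3.86 and 5.03 CPM at 0 µM. The highest value was 10 µM replicate 4 and the lowest was 0 µM replicate 3, but replicate 1 read the same in both groups, and the groups overlapped. The means were 6.11 ± 0.744 CPM at 10 µM and 5.01 ± 0.814 CPM at 0 µM (SD, n = 4 each). The log2 fold change was 0.29 ± 0.15 (SE) and did not pass (edgeR exact test, adjusted p = 0.565). Without 0 µM replicate 3 it was 0.19 (adjusted p = 0.913). In limma-voom with quality weights the 95% interval of the difference was -0.03 to 0.57 on the log2 scale. That interval holds 0 as well as the fitted values of both ferritin subunits.

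The ferritin subunits were deeply counted, with 46874 to 98429 counts in every library. The sources used here do not say which identifier encodes the heavy chain and which the light chain. AAEL007385 was counted 73501, 98429, 69323 and 89273 times at 10 µM heme, and 54178, 62834, 64858 and 58945 times at 0 µM. These were 1617, 1753, 1428 and 1466 CPM at 10 µM, against 1197, 1089, 1192 and 1037 CPM at 0 µM. The lowest 10 µM library, replicate 3, thus lay well above the highest 0 µM library, replicate 1. The means were 1566 ± 149 CPM at 10 µM and 1129 ± 78.7 CPM at 0 µM (SD, n = 4 each). The log2 fold change was 0.47 ± 0.08 (SE), with an unadjusted p of 0.00927 in the edgeR exact test and an adjusted p = 0.132.

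AAEL007383 was counted 62228, 93657, 60389 and 79492 times at 10 µM heme, and 46874, 59840, 61543 and 60453 times at 0 µM. These were 1369, 1668, 1244 and 1305 CPM at 10 µM, against 1036, 1038, 1131 and 1064 CPM at 0 µM. Replicate 2 was the highest of the 10 µM libraries, as it was for AAEL007385, while the 0 µM libraries lay close together. The means were 1397 ± 188 CPM at 10 µM and 1067 ± 44.8 CPM at 0 µM (SD, n = 4 each). The log2 fold change was 0.39 ± 0.10 (SE), with an unadjusted p of 0.0358 in the edgeR exact test and an adjusted p = 0.307.

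Whether the ferritin difference was called depended on the test. In limma-voom with quality weights, in which 5.32% of genes tested passed, AAEL007385 passed (adjusted p = 0.0131), with a 95% interval of 0.30 to 0.70 on the log2 scale. AAEL007383 did not pass there (adjusted p = 0.0653, interval 0.15 to 0.61). In DESeq2, with 6.95% of genes passing, both passed, AAEL007385 at an adjusted p of 6.05e-04 and AAEL007383 at 0.0262. In edgeR's quasi-likelihood test, with 2.85% of genes passing, neither did (adjusted p = 0.0531 and 0.126 for AAEL007385 and AAEL007383).

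Without 0 µM replicate 1 and 10 µM replicate 2, the libraries described as lying apart, the log2 fold change was 0.44 for AAEL007385 (edgeR exact test, adjusted p = 0.129) and 0.27 for AAEL007383 (adjusted p = 0.478). In the same fit that of heme oxygenase was 0.34 (adjusted p = 0.575) and that of AAEL015458, described further on, was -1.71 (adjusted p = 0.358).

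The run of 26 identifiers named above moved the estimate of spread behind these calls. When it was left out of the exact test, the log2 fold change of AAEL007385 was again 0.47, but its adjusted p was 0.00462, and that of AAEL007383 was 0.0526. In that fit 4.4% of genes passed. The dispersion edgeR assigned to AAEL007385 was 0.0314 with the run and 0.0142 without it, and that of AAEL007383 was 0.0327 with it and 0.0157 without it. The fitted trend toward which gene estimates are drawn stood at 0.0748 with the run and 0.0259 without it for AAEL007385. For heme oxygenase, with fewer counts, the dispersion was 0.0281 with the run and 0.0285 without it.

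**Figure D2:**
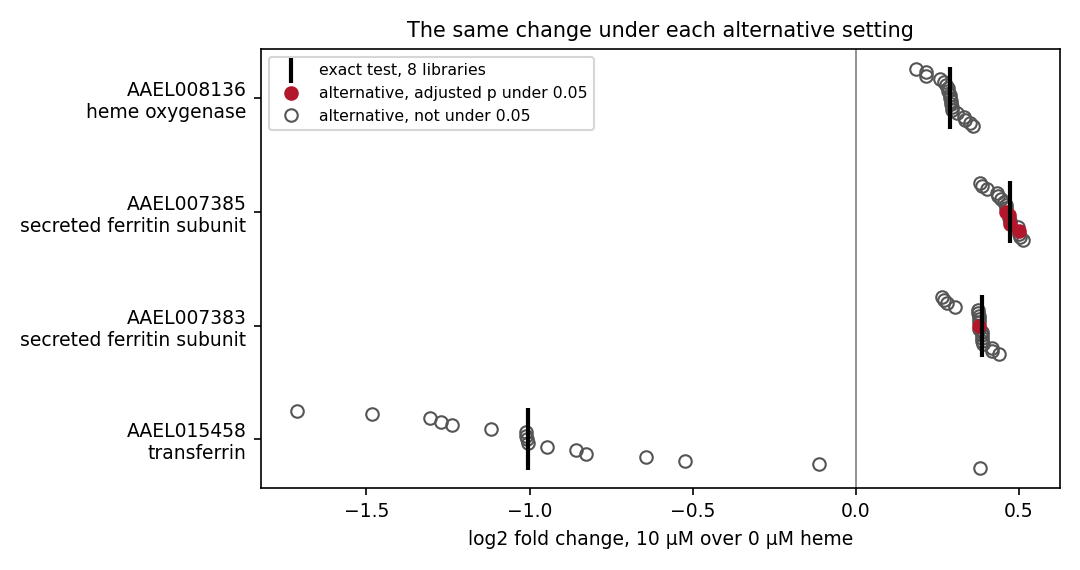
Log2 fold change, 10 µM over 0 µM heme, of the 4 genes in the exact test on 8 libraries (bars) and under each alternative setting (points, offset vertically for legibility only; filled where the adjusted p was under 0.05). All points of heme oxygenase and the ferritin subunits lie right of 0, 4 of 19 are filled for AAEL007385 and 1 of 19 for AAEL007383, and AAEL015458 spans -1.71 to 0.38.

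The ferritin subunits also moved together from library to library. The Pearson correlation of their log2 CPM over the 8 libraries was 0.94 (Spearman 0.83), which includes the difference between the groups, and 0.78 after each group's mean was subtracted. Among all 11094 other genes, AAEL007385 was the one most like AAEL007383 by this measure, and AAEL007383 ranked 9 for AAEL007385. The points share their library, its scaling and its pool of midguts, so the coefficients are given as a description. How reads that matched more than 1 transcript were counted is not stated, and whether the subunits shared reads was not tested.

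The ratio of AAEL007385 to AAEL007383 counts, which is free of the scaling of the library, was 1.18, 1.05, 1.15 and 1.12 in 10 µM heme replicates 1 to 4, against 1.16, 1.05, 1.05 and 0.975 in 0 µM replicates 1 to 4. The mean ratio was 1.13 ± 0.0553 at 10 µM and 1.06 ± 0.0742 at 0 µM (SD, n = 4 each). The groups overlapped, and the difference of 0.09 on the log2 scale was of the size of the spread between replicates (SD 0.07 at 10 µM and 0.10 at 0 µM). No difference in the balance of the subunits was thus seen beyond that spread. Since transcript lengths were not used, the ratio compares libraries and does not say which subunit was the more abundant.

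**Figure D3:**
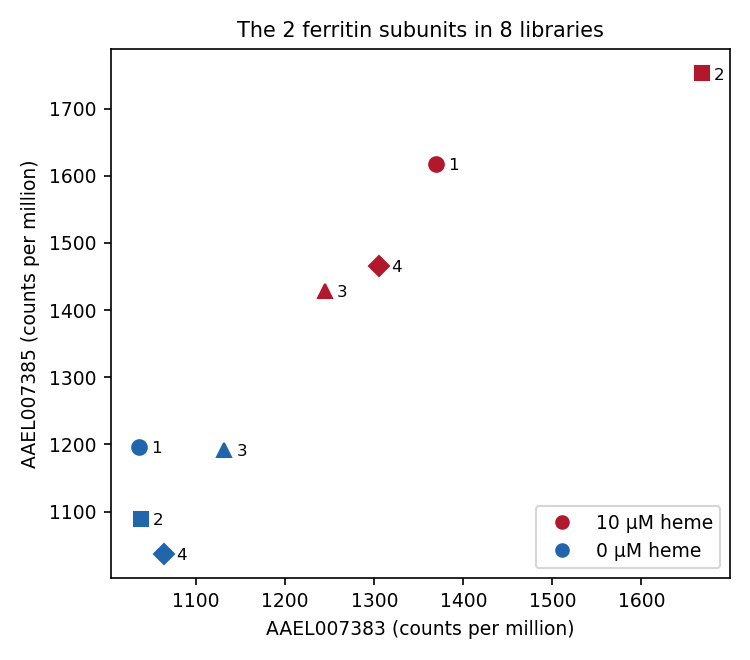
Level of AAEL007385 (vertical axis) against AAEL007383 (horizontal axis) in each library, in CPM, with the replicate number beside each point. Libraries at 10 µM heme (red) lie above and to the right of those at 0 µM (blue), and replicate 2 at 10 µM is highest for both subunits, at 1753 and 1668; both axes start above 0.

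The transferrin AAEL015458 had few counts. It was the only gene of the set for which the study listed primers for quantitative PCR, and those are shown because they mark the part of this transcript that the study meant to amplify, 20 bases each, 5′ to 3′, with no capitals set:
AAEL015458 forward: atgatggagcgatccgatgt
AAEL015458 reverse: tacgcgcatttggattcagg

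AAEL015458 was counted 17, 44, 14 and 16 times in 10 µM heme replicates 1 to 4, and 18, 141, 14 and 19 times in 0 µM replicates 1 to 4. These were 0.374, 0.783, 0.288 and 0.263 CPM at 10 µM, against 0.398, 2.44, 0.257 and 0.334 CPM at 0 µM. Replicate 2 was the highest library of each group, 2.09 times the next at 10 µM and 6.15 times the next at 0 µM. The other 6 libraries lay between 0.257 and 0.398 CPM whatever the medium. The means were 0.427 ± 0.242 CPM at 10 µM and 0.859 ± 1.06 CPM at 0 µM (SD, n = 4 each), and the log2 fold change of -1.0 ± 0.78 (SE) did not pass (edgeR exact test, adjusted p = 0.685).

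That negative value rested on 1 library. Without 0 µM replicate 2 the log2 fold change was 0.38 (adjusted p = 0.971), and without replicate 2 of both groups, an alternative added after the values were seen, it was -0.11 (adjusted p = 1). The limma-voom interval, -2.18 to 1.13 on the log2 scale, allows a change of over 2-fold either way, so no direction can be given for this gene. Its dispersion in edgeR was 0.470, against a trend of 0.0910 for genes of its level. Of the 11095 genes tested, 4 had replicate 2 at least 2-fold above the next library in both groups, AAEL015458 included, while 670 had replicate 2 highest in both groups by any margin. Replicate 2 was picked from the values of AAEL015458, so the place of this gene among the 4 was fixed in advance. Other replicate numbers were not counted in this way, so the counts do not set replicate 2 apart. Whether tissue other than midgut was carried into replicate 2 was not tested, since no fat body or hemocyte markers are named in the sources used here.

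A further transferrin identifier, AAEL011641, had far more counts. It had 1278, 1767, 1508 and 1863 CPM in 10 µM heme replicates 1 to 4, against 1179, 1603, 1679 and 1655 CPM in 0 µM replicates 1 to 4. The groups overlapped over most of their range, and the means were 1604 ± 264 CPM at 10 µM and 1529 ± 236 CPM at 0 µM (SD, n = 4 each). Without 0 µM replicate 1 and 10 µM replicate 2 the log2 fold change was -0.09 (edgeR exact test, adjusted p = 0.925). With all 8 libraries it was 0.07 ± 0.17 (SE; edgeR exact test, adjusted p = 0.984), and the limma-voom interval was -0.26 to 0.26 on the log2 scale. Its upper end lay below the fitted value of either ferritin subunit, but it overlapped the interval of AAEL007383, 0.15 to 0.61. A difference in response between the genes was not tested.

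The ferritin values were then set beside 14 other tested genes of iron and heme handling that the study names. None of the 14 passed the exact test at an adjusted p of 0.05 (1 had an unadjusted p under 0.05), and in 0 of 14 did all 10 µM libraries lie above all 0 µM libraries. Over all genes tested these held for 4.63%, 13.3% and 4.87%, so counts this low among 14 genes do not set the list apart. DESeq2 called 1 of the 14 (6.95% of all genes it tested), the quasi-likelihood test 0 (2.85%) and limma-voom 0 (5.32%). Their median log2 fold change was -0.03, with a range of -0.52 to 0.37, beside a median of 0.02 over all genes tested. By role, 2 of 3 iron transport genes, 3 of 5 genes of heme synthesis and insertion, and 1 of 6 genes for iron-sulfur and heme proteins had a value above 0, as did 5927 of the 11095 genes tested.

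Of these, 5-aminolevulinic acid synthase, AAEL007787, the enzyme of the first committed step of heme synthesis, had the largest value in absolute size. It had 77.3, 50.7, 83.6 and 63.0 CPM at 10 µM heme, against 103, 82.3, 101 and 108 CPM at 0 µM. The groups overlapped only in that 10 µM replicate 3 lay just above 0 µM replicate 2. The means were 68.7 ± 14.7 CPM at 10 µM and 98.6 ± 11.2 CPM at 0 µM (SD, n = 4 each), a log2 fold change of -0.52 ± 0.18 (SE), opposite in sign to the ferritins (edgeR exact test, adjusted p = 0.0680). It passed in DESeq2 (adjusted p = 0.0345), when scaled by library totals (0.0117) and when genes under 1 CPM were filtered out (0.0493), all by Benjamini-Hochberg adjustment over the genes tested. It did not pass in the quasi-likelihood test (adjusted p = 0.130), in limma-voom (0.112), with DESeq2 size factors (0.0547), without a filter (0.102) or with the run of 26 identifiers left out (0.0623), and without 10 µM replicate 2 it was -0.41 (adjusted p = 0.210). With 0 µM replicate 1 left out as well, it was -0.39 (edgeR exact test, adjusted p = 0.287). Of the other genes of heme synthesis and insertion, porphobilinogen synthase AAEL002304 stood at 0.29 ± 0.14 (log2, SE; edgeR exact test, adjusted p = 0.417) and coproporphyrinogen III oxidase AAEL013389 at 0.24 ± 0.09 (adjusted p = 0.386). Without 0 µM replicate 1 and 10 µM replicate 2, these values were 0.41 (edgeR exact test, adjusted p = 0.209) and 0.33 (adjusted p = 0.205). Protoheme IX farnesyltransferase AAEL001479 stood at -0.05 ± 0.19 (adjusted p = 0.986) and cytochrome c1 heme lyase AAEL014630 at 0.05 ± 0.33 (adjusted p = 0.998).

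The second largest value in absolute size belonged to AAEL014762, named as an iron transporter of the ZIP family. It had 36.4, 49.5, 34.5 and 44.2 CPM at 10 µM heme, against 24.1, 40.8, 29.6 and 32.5 CPM at 0 µM. The groups overlapped, replicate 2 being the highest in each, and the log2 fold change of 0.37 ± 0.20 (SE) did not pass (edgeR exact test, adjusted p = 0.382). Without 0 µM replicate 1 and 10 µM replicate 2 it was 0.16 (edgeR exact test, adjusted p = 0.823). The zinc and iron transporter AAEL013756 differed by -0.10 ± 0.07 (log2, SE; adjusted p = 0.894), and mitochondrial aconitase AAEL012897, an iron-sulfur enzyme, by -0.11 ± 0.18 (log2, SE; adjusted p = 0.927).

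**Figure D4:**
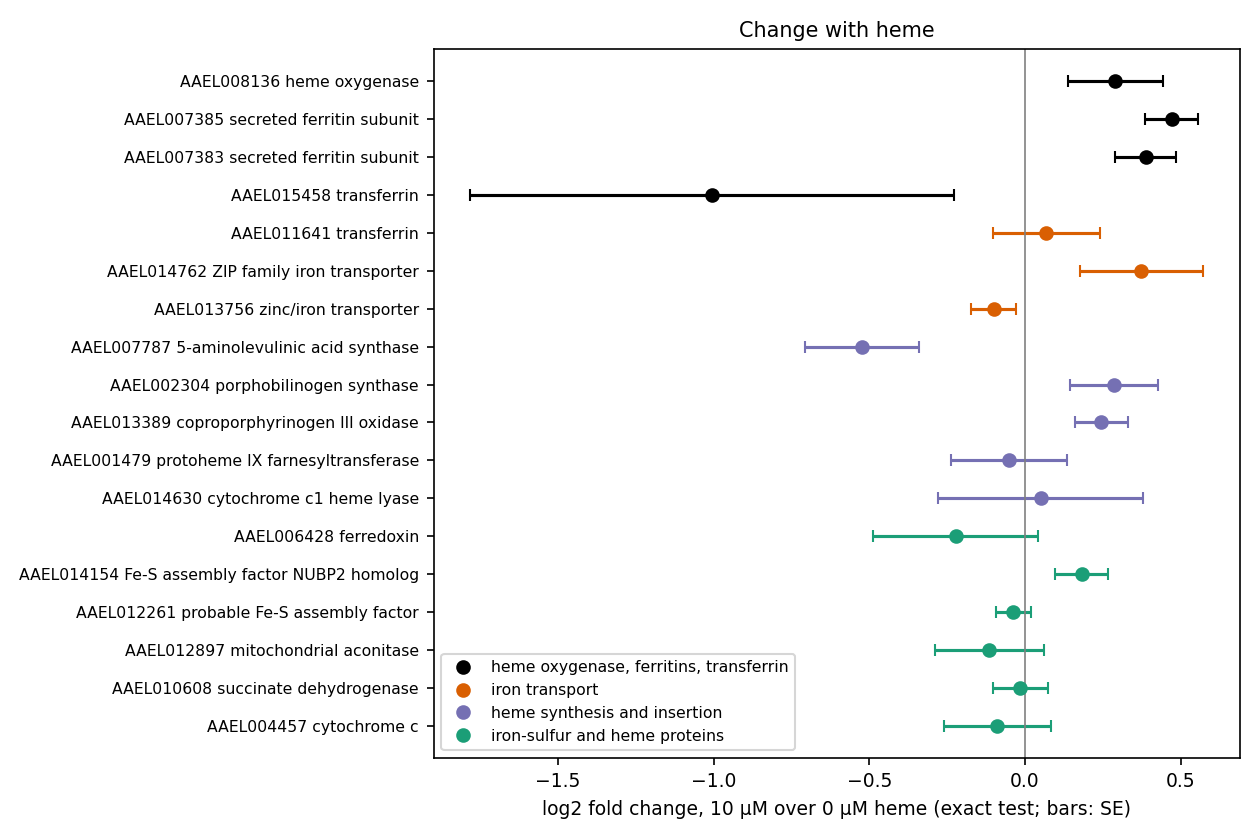
Log2 fold change, 10 µM over 0 µM heme, from the exact test on 8 libraries (points) for the 4 genes and the 14 other iron and heme genes, coloured by role. Bars are the SE of the difference in mean log2 CPM. The ferritin subunits are at 0.47 and 0.39 with short bars, AAEL015458 at -1.0 has the widest bar, and the other genes lie between -0.52 and 0.37.

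Finally, for each gene the most similar pattern was sought among 759 genes that the study or its tables name with a product, by the Pearson correlation of log2 CPM over the 8 libraries. Heme oxygenase was nearest to AAEL005832, labelled as programmed cell death (r = 0.85, rank 77 among all genes). AAEL007385 was nearest to AAEL003599, sulfiredoxin, an enzyme that repairs over-oxidised peroxiredoxins (r = 0.93, rank 19), whose own log2 fold change was 0.34 (edgeR exact test, adjusted p = 0.133). AAEL007383 was nearest to AAEL000687, of the glucosyl and glucuronosyl transferases (r = 0.89, rank 24), and AAEL015458 to AAEL002145, labelled as a gonadotropin inducible transcription factor (r = 0.82, rank 32). Heme oxygenase correlated with AAEL007385 at 0.55 and with AAEL007383 at 0.49 over the 8 libraries, and at -0.05 and -0.08 once group means were removed. With 8 points and the best of many genes taken, these coefficients describe the libraries only.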

How the data were processed

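Counts per gene identifier were deposited by the authors without normalization, with replicates kept separate. Per the study's methods and the submitters' processing notes, single-end reads were aligned to AaegL5 with HISAT2 2.1.0, low-quality alignments were removed with SAMtools, and reads per transcript were counted with bedtools 2.19.1. The treatment of strand and shared reads is not stated. None of the 19712 identifiers matched the RefSeq table of AaegL5.0 (0 matches), so positions, lengths, promoters and proteins are not given. Names are those the study gives.

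In R 4.3.3, edgeR 4.0.16 was used on all 8 libraries (TMM, default filterByExpr, exact test without a design matrix, two-sided, Benjamini-Hochberg adjustment over 11095 genes, threshold 0.05). CPM were TMM-scaled. SE are of the difference in mean log2 CPM with a prior count of 2, and not of the edgeR fold change they are printed beside. The 95% intervals are from limma 3.58.1 voom with quality weights. Alternatives were edgeR's quasi-likelihood test without and with a replicate block, DESeq2 1.42.0, its size factors, library totals, other filters, and leaving out libraries or a run of identifiers. The tests were tested on simulated data. Total counts were 46027977 to 56947544 per library, and no identifier was a summary row.

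The members and lists were chosen with earlier results of these data known. The genes named were all members, the 2 largest fold changes among the other iron and heme genes, and the nearest named gene to each member. AAEL011641, AAEL002304, AAEL013389, AAEL001479, AAEL014630, AAEL013756 and AAEL012897 were chosen from those lists after their values were seen. Same-numbered libraries were not taken as pairs, since the labels do not say what a number marks.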

Additional observations from a re-analysis of the deposited data

Results flagged for a closer look

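Within the 4 libraries of a group, a value was looked at again when its gap to the nearest library, as a share of the range, passed Dixon's critical value for 4 samples. Of 36 groups tested, 3 had such a library, where chance gives about 1.8. All 3 were at 0 µM heme. The transferrin AAEL015458 had 2.44 CPM in 0 µM replicate 2, against 0.257 to 0.398 CPM in the other 0 µM libraries. The transferrin AAEL011641 had 1179 CPM in 0 µM replicate 1, against 1603 to 1679 CPM in the others. Cytochrome c1 heme lyase, AAEL014630, which attaches heme to cytochrome c1, had 50.2 CPM in 0 µM replicate 1, against 25.7 to 28.8 CPM in the others. At 10 µM heme this gene was also highest in replicate 1, with 48.5 CPM.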

How the results depend on the processing

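Heme oxygenase and both ferritin subunits kept a positive log2 fold change under all 19 alternatives, with 0.19 to 0.36 for heme oxygenase (0 calls), 0.38 to 0.51 for AAEL007385 (4 calls) and 0.26 to 0.44 for AAEL007383 (1 call). The calls of AAEL007385 came at 0.46 in DESeq2, 0.50 in limma-voom, 0.47 with the run of 26 identifiers left out, and 0.47 with the replicate block; that of AAEL007383 came at 0.38 in DESeq2. AAEL015458 was negative in 16 of 17 alternatives and turned positive, 0.38, without 0 µM replicate 2 (-1.48 to 0.38 without single libraries). It was called in 0 of 17, DESeq2 gave it no p (NA), and the filter of CPM over 1 removed it. Of the 4 genes, 2 were called by DESeq2, 1 by limma-voom, 1 with the run left out, and 0 without any single library. Of the 14 other iron and heme genes, 1 was called by DESeq2, 1 with library totals and 1 with the filter of CPM over 1. Without single libraries 0 to 1 were called (AAEL007787, without 10 µM replicate 3 or 0 µM replicate 2). In all, DESeq2 called 724 genes, the fit with library totals 442 and the fit with that filter 495. A count of 1 in 14 thus does not set the list apart. Over all genes, the quasi-likelihood test called 316, leaving out single libraries 333 to 549, with 333 without 10 µM replicate 3, and leaving out replicate 2 of both groups 280, against 514. The difference in the ferritin ratio stayed between 0.05 and 0.13 (log2) without single libraries.

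With the replicate block, 725 genes were called, among them 1 of the 4 genes (AAEL007385, 0.47, adjusted p = 0.0360) and 2 of the 14 others, AAEL007787 (adjusted p = 0.0215) and AAEL014762 (0.0380). With each gene's group mean subtracted, same-numbered libraries correlated over genes at 0.52, 0.07, 0.06 and 0.16 for numbers 1 to 4. These coefficients are of deviations from the group means and not of the levels themselves. Same-numbered libraries were therefore not treated as pairs. AAEL015458 had 14 to 141 counts per library, and the share of depth in its spread was not tested. The cause of these differences was not tested apart from the dispersion given in the report.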
